A study of Rattus norvegicus with 8 samples.

Results

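The EGR and AP-1 immediate early factors are a group of 10 transcription factor genes, namely Egr1, Egr2, Egr3, Egr4, Fos, Fosb, Jun, Junb, Jund and Atf3. They were chosen by name, through the probes that carry only that gene symbol in the probe table of the array. Of the 10 genes, 9 had such a probe, with 11 probes in all, and Fosb had none. These 9 genes are set among the 14801 named genes that were tested.

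The study compared large RGCs with small RGCs, where RGCs are retinal ganglion cells, the neurons whose axons form the optic nerve. Rat ganglion cells were labelled retrogradely, by way of their axons, with the fluorescent tracer 4DI-10ASP and sorted by flow cytometry into the large and the small fraction. Actinomycin D, which blocks transcription, was present in both fractions during the procedure, and the RNA of both went through 2 rounds of linear amplification. Each of 8 two-colour arrays set a large fraction (Cy5 in the labels) against a small fraction (Cy3). The sources used here give neither strain, age and sex of the rats nor the number of animals behind an array.

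Immediate early genes are transcribed within minutes of calcium entry, growth factor signalling or stress, from factors that are already in the cell, such as serum response factor and CREB. The EGR proteins bind DNA through zinc fingers. Fos and Jun proteins pair through leucine zippers into AP-1, and Atf3 is a stress-induced partner of the same fold. In ganglion cells, Jun and Atf3 are known for their induction after injury of the optic nerve.

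Every value is a log2 ratio of the 2 channels of an array, so a value of 1 is a doubling, and no level in either fraction can be read from it. In sorted bulk RNA, more cells that express a gene and more RNA per cell cannot be told apart. The direction of the ratio is not settled. The 8 arrays, called by their title numbers, fell into 2 sets by their correlation over all probes, with arrays 39, 41, 43 and 70 in set 1 and arrays 40, 42, 69 and 71 in set 2. Pearson correlations lay between 0.22 and 0.68 within the sets. Between the sets, 15 of 16 were negative, and array 39 reached -0.30 with array 42 and -0.32 with array 69. A dye swap is mentioned in the series text, whereas the labels give every array the same dyes. If swapped arrays had been turned, the mean of the 8 arrays measures large against small cells. If they had not, the contrast lies in the difference between the sets and cancels in the mean. Each gene is therefore given with its mean and with its set deviation, the amount by which set 1 lay above the mean of all 8 arrays, which is also the mean when the signs of set 2 are turned. If swapped arrays had been turned and the ratio runs from the Cy5 to the Cy3 channel, a positive mean is higher in large cells. With swapped arrays not turned, a positive mean would not speak to large against small cells. The labels mention technical subreplicates without saying which arrays they are, so the 8 arrays entered the test singly. Their p-values may rest on fewer biological samples. With the sets fitted, limma put the consensus correlation of arrays with neighbouring title numbers at 0.495 over all genes. The test on single arrays makes no allowance for it. Neighbouring here means next to each other in the order of title numbers. Array 43 is thus paired with array 69, although these numbers are not consecutive.

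On the mean, 3 of the 9 measured genes passed the test, Egr2, Egr1 and Jun, all on the positive side and on 8 of 8 arrays. The test was limma over all 14801 genes with a Benjamini-Hochberg adjusted p under 0.05. It called 2.19% of all genes, 0.568% on the positive and 1.62% on the negative side, and 1.56% of genes were positive on 8 of 8 arrays. A mean above 0 was found for 7 of the 9 genes, and their median was 0.37, against a median of -0.01 over all genes tested. Egr3 and Jund lay close to 0.

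**Figure D1:**
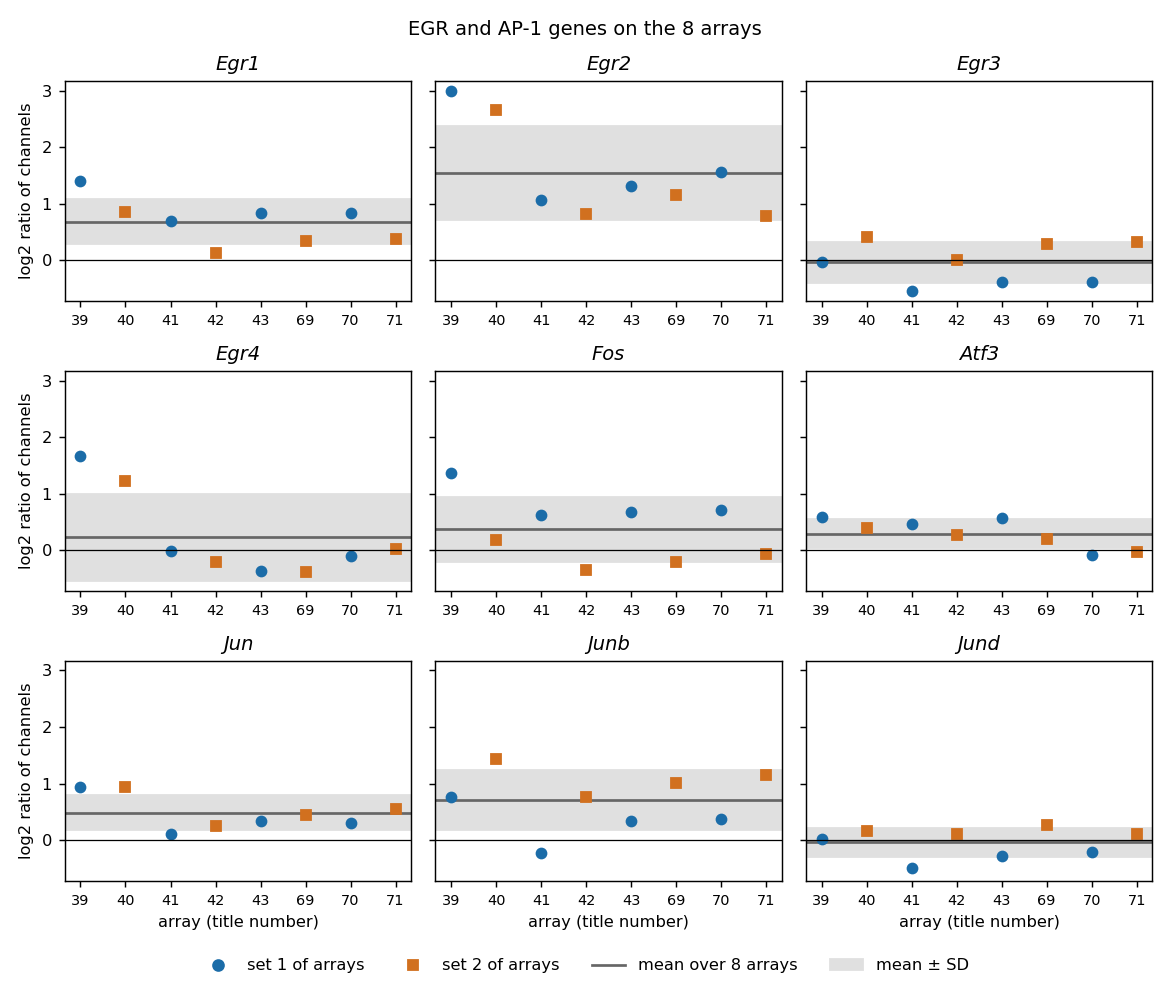
Log2 ratio of each measured EGR and AP-1 gene (vertical axis) on the 8 arrays (horizontal axis, by title number), with set 1 as blue circles, set 2 as orange squares, the mean as a grey line and the mean ± SD as a band. Egr1, Egr2 and Jun lie above 0 on all 8 arrays, and arrays 39 and 40 stand highest for Egr1, Egr2, Egr4 and Jun.

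Egr2, known as Krox-20 and needed for hindbrain patterning and myelination, had the highest mean ratio of all 14801 genes. Its values ran from 0.79 through a median of 1.24 to 2.99. Every array was positive, and arrays 39 and 40, at 2.99 and 2.66, stood clear of the other 6, which ended at 1.56. On each of the 8 arrays Egr2 lay above at least 97.7% of all genes. The mean was 1.54 ± 0.84 (SD, n = 8), a 2.92-fold difference with a 95% interval of the log2 mean from 0.99 to 2.10 (limma adjusted p = 0.0132). Egr2 was called whichever array was left out, with a limma adjusted p of at most 0.0480, and without arrays 39 and 40 its mean was 1.12 (limma adjusted p = 0.00522). Over the 4 averages of arrays with neighbouring title numbers, a fit that called 0.0% of all genes, the limma adjusted p was 0.125.

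Egr1, also called Zif268 and a widely used marker of neuronal activity, was likewise highest on arrays 39 and 40, at a smaller size. Its lowest value was 0.12, its median 0.77 and its highest 1.41. The lowest was array 42 and the highest were arrays 39 and 40, at 1.41 and 0.86, just above array 70 at 0.84. The mean was 0.68 ± 0.40 (SD, n = 8), a 1.61-fold difference (95% interval 0.40 to 0.97, limma adjusted p = 0.0227). The call ended when array 40, 41, 43 or 70 was left out, with a limma adjusted p of 0.0548, 0.0619, 0.0694 and 0.0738 in that order, while the mean stayed between 0.66 and 0.68. Over the 4 averages of neighbouring arrays the limma adjusted p was 0.101, and without arrays 39 and 40 it was 0.0482.

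Promoters are shown as a description, since serum response factor acts on immediate early genes through CArG boxes. Any part of such sites in the ratios was not tested. RefSeq windows (build GRCr8) of 250 bases before to 50 bases after the gene start were found for 6 of the 10 members. Jun, which was also called on the mean, had none, nor had Egr3, Fos or Atf3. Capitals mark matches on either strand to a CArG box, to the CREB site TGACGTCA, to the AP-1 site TGANTCA or to the EGR site GCGTGGGCG. No matches overlapped one another in these windows. Egr4 is added as the family member with a window whose mean was not called, and Jund as the AP-1 gene closest to 0.
Egr1, chr18:26736828-26737127, plus strand: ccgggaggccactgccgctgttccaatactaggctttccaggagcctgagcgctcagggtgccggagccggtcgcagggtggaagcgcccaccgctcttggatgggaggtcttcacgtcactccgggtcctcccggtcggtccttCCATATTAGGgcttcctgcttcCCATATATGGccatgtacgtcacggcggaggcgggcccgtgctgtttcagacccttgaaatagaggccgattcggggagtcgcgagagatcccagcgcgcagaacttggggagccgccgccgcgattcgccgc
Egr2, chr20:21054392-21054691, minus strand: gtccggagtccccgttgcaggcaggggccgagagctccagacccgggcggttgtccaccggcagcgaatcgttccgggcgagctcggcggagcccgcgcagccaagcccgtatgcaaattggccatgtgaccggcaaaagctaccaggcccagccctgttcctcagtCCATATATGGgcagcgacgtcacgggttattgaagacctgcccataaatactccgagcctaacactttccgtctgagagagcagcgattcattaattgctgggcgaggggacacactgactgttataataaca
Egr4, chr4:119607768-119608067, minus strand: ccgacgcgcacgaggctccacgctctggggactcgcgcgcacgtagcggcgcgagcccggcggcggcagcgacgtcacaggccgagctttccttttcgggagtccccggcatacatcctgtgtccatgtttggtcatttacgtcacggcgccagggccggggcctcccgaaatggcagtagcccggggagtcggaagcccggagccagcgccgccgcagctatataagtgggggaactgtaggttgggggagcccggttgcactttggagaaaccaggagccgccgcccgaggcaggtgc
Jund, chr16:18769722-18770021, minus strand: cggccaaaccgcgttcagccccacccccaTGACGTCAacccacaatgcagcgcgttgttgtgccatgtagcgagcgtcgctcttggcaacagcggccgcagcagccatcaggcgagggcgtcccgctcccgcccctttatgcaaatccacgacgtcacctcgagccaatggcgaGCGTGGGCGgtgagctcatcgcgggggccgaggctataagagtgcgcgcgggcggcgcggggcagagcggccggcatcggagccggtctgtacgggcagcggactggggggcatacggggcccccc
The Egr1 window holds 2 CArG boxes, CCATATTAGG starting 105 bases and CCATATATGG starting 83 bases before the gene start. The Egr2 window holds the second of these, CCATATATGG, which also starts 83 bases before its gene start. A CArG box occurs in 1.64% of the 33469 rat promoter windows of this length. The Jund window holds TGACGTCA and GCGTGGGCG, found in 1.83% and 0.544% of windows. The AP-1 site, in 7.33% of windows, was in no window of the members, and none of the 4 motifs was in those of Egr4, Fosb or Junb. A match is a run of letters and not a measured binding site.

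Egr4 and Egr3, the other EGR genes, were not called. Egr4 had values from -0.38 through a median of -0.05 to 1.66. Arrays 39 and 40 stood at 1.66 and 1.22, and the other 6 lay between -0.38 and 0.03, so that the 2 ranges did not meet. Its mean was 0.23 ± 0.77 (SD, n = 8, 95% interval -0.28 to 0.74, limma adjusted p = 0.81), and without arrays 39 and 40 it was -0.17. The mean of Egr4 over 8 arrays thus takes its sign from that pair of arrays. Egr3, a factor induced by activity and required for muscle spindles, ran from -0.55 through -0.01 to 0.41 and was positive on 4 arrays. Its mean of -0.04 ± 0.36 (SD, n = 8) had a 95% interval from -0.30 to 0.22 (limma adjusted p = 0.964). The 4 arrays of set 2 lay between 0.01 and 0.41 and the 4 of set 1 between -0.55 and -0.03, so Egr3 split by set.

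Jun, the AP-1 subunit that is phosphorylated by the JNK kinases, was positive on 8 of 8 arrays. Its values ran from 0.11 through a median of 0.39 to 0.95. Arrays 39 and 40, at 0.94 and 0.95, lay above the other 6, of which the highest was 0.56. The mean was 0.48 ± 0.31 (SD, n = 8), a 1.40-fold difference (95% interval 0.25 to 0.72, limma adjusted p = 0.0440). This call was the least stable of the 3. It held only when array 41 was left out (limma adjusted p = 0.0493) and ended without any other array, with adjusted p up to 0.111 and means from 0.42 to 0.52. It also ended without arrays 39 and 40 (mean 0.33, limma adjusted p = 0.0636), with array medians set to 0 (limma adjusted p = 0.0511), among single probes (limma adjusted p = 0.0519) and over averages of neighbouring arrays (limma adjusted p = 0.205). An exact sign-flip permutation test over the 8 arrays (2-sided, unadjusted) gave p = 0.00781 for Egr1, Egr2 and Jun alike. This is the smallest value that 8 arrays allow. Any gene positive on 8 of 8 arrays must reach it, as 1.56% of genes were, so it adds nothing to that count. The sign-flip test also takes the arrays as independent.

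Junb, an AP-1 subunit that can hold back the activity of Jun, had a larger mean than Egr1 but did not pass the test. Its values ran from -0.23 through a median of 0.76 to 1.44, and array 41 alone was negative. The mean was 0.70 ± 0.53 (SD, n = 8), with a 95% interval from 0.34 to 1.07 (limma adjusted p = 0.0584). Array 41 decided the call, since without it the mean was 0.84 (limma adjusted p = 0.0289). Within set 2 the values lay between 0.76 and 1.44 and within set 1 between -0.23 and 0.77. Once the set entered as a covariate, Junb was called (limma adjusted p = 0.00725), as were 6.27% of all genes. With neighbouring arrays as a random block besides, it was called too (limma adjusted p = 0.0160), with 3.04% of all genes. The sets were drawn from these same values, so fitting them can lower the residual spread by that choice alone. Both calls therefore give no independent support. Jund, the AP-1 subunit that most cells express without a stimulus, ran from -0.50 through 0.07 to 0.26, with a mean of -0.04 ± 0.26 (SD, n = 8, 95% interval -0.24 to 0.17, limma adjusted p = 0.953).

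Fos, the partner of Jun in AP-1 and the classic marker of recent activity, was measured by 2 probes that gave different answers. Probe 23604 was positive on 8 of 8 arrays, at 2.16 and 1.35 on arrays 39 and 40 and between 0.33 and 0.83 on the other 6. Its mean was 0.92 ± 0.58 (SD, n = 8), and it was called when single probes were tested (limma adjusted p = 0.0290, with 2.12% of 23373 probes called). Probe 3234 followed the sets instead. It read 0.57, 0.40, 0.60 and 0.65 in set 1 (39, 41, 43, 70). It read -0.99, -1.33, -0.75 and -0.66 in set 2 (40, 42, 69, 71). Its mean was -0.19 ± 0.82 (SD, n = 8, limma adjusted p = 0.891). The value for Fos as a gene averages these unlike probes and was 0.37 ± 0.58 (SD, n = 8, 95% interval -0.02 to 0.76, limma adjusted p = 0.430). Which probe reads the Fos transcript better was not tested, since no probe sequences were analysed here. The 2 probes of Jund lay closer together, at -0.08 ± 0.10 and 0.00 ± 0.44 (SD, n = 8 each), and the second spread more widely between the sets. The other 7 genes had 1 probe each, so that no second reading stands beside them.

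**Figure D2:**
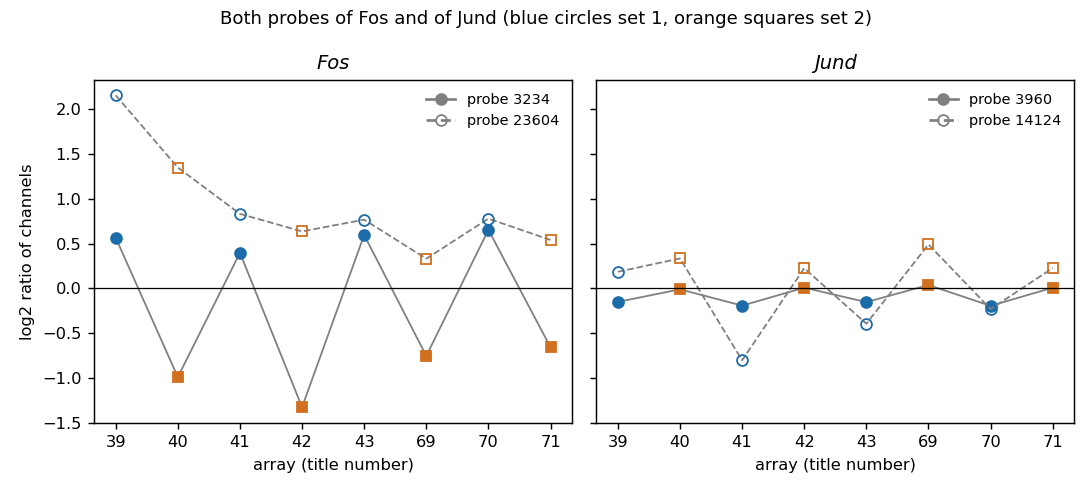
Log2 ratio (vertical axis) of the 2 probes of Fos and the 2 probes of Jund on the 8 arrays (horizontal axis), with set 1 as circles and set 2 as squares, and filled or open symbols for the probes. Fos probe 23604 stays above 0 on all arrays, while probe 3234 is above 0 on every array of set 1 and below 0 on every array of set 2.

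Atf3, the stress-induced member of the group, was positive on 6 of 8 arrays. Its values ran from -0.08 through a median of 0.33 to 0.58, with the negative ones on arrays 70 and 71. The mean was 0.29 ± 0.25 (SD, n = 8), and although the 95% interval from 0.09 to 0.49 lay above 0, the gene did not pass over all genes (limma adjusted p = 0.153).

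In the order of their means the genes ran Egr2, Junb, Egr1, Jun, Fos, Atf3, Egr4, Egr3 and Jund. Egr2 exceeded Junb by 0.84 ± 0.84 (SD of the difference over 8 arrays) and was the higher of the 2 on 7 arrays. For the other neighbouring pairs the mean difference was 0.27 or less, with SDs between 0.15 and 0.75. In no neighbouring pair, Egr2 and Junb included, did the mean difference exceed its SD. That SD is the spread of the difference over arrays and not the uncertainty of its mean. The order was not tested, and genes farther apart in it were not compared.

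The sets of arrays divided the genes differently from the mean. On the set deviation, 4 of the 9 genes were called, against 33.6% of all genes. Set 1 was higher for 16.3% and set 2 for 17.3%, so the members' share was near that of the background. Because the sets were drawn from these same values, calls on the set deviation, or with signs turned, can follow from the division itself. Their p-values describe that division and give no independent test. Fos lay higher in set 1, with a set deviation of 0.48 (95% interval 0.27 to 0.69, limma adjusted p = 0.00527), of which probe 3234 gave the larger part. Junb at -0.39 (limma adjusted p = 0.0250), Egr3 at -0.30 (limma adjusted p = 0.0103) and Jund at -0.20 (limma adjusted p = 0.0269) lay higher in set 2. For Egr3, Fos and Jund the values of the sets did not overlap, as was the case for 35.0% of all genes.

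Egr2 and Jun, called on the mean, had set deviations with wide intervals around 0. They were 0.19 for Egr2 (95% interval -0.40 to 0.77, limma adjusted p = 0.601) and -0.06 for Jun (95% interval -0.30 to 0.17, limma adjusted p = 0.666). Egr1 was positive in both sets but higher in set 1, with means of 0.94 and 0.42 and a set deviation of 0.26 (95% interval 0.04 to 0.48, limma adjusted p = 0.0703). Within sets, Egr2 averaged 1.73 ± 0.86 in set 1 and 1.35 ± 0.89 in set 2, and Jun 0.42 ± 0.36 and 0.55 ± 0.30 (SD, n = 4 arrays each). A fit of the mean with the signs of set 2 turned called 28.1% of all genes. There Egr2, Egr1 and Jun were not called (limma adjusted p = 0.829, 0.449 and 0.829), Fos was called on the positive side (limma adjusted p = 0.0384), and Egr3 and Jund were called on the negative side (limma adjusted p = 0.0101 and 0.0291). Junb lay on the negative side and was not called in that fit (limma adjusted p = 0.278). Atf3 at 0.09 (limma adjusted p = 0.442) and Egr4 at 0.07 (limma adjusted p = 0.854) were not called on the set deviation either. The labels do not say which signs hold.

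**Figure D3:**
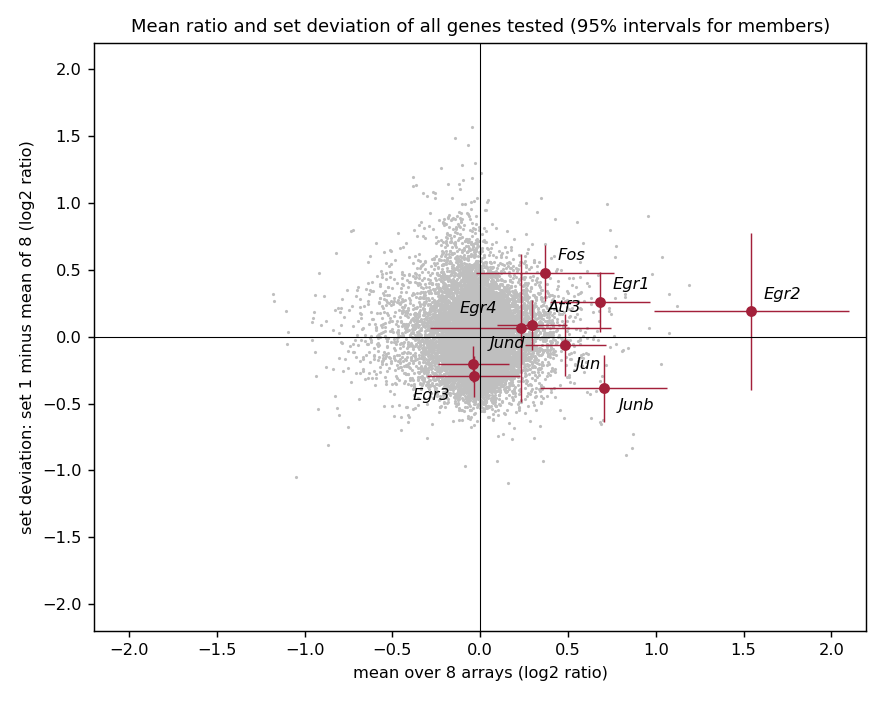
Mean log2 ratio over 8 arrays (horizontal axis) against the set deviation, the mean of set 1 minus the mean of all 8 arrays (vertical axis), for 14801 genes in grey and the 9 members in red with 95% intervals. Egr2 lies farthest to the right of all genes, Fos lies highest among the members, and Junb, Egr3 and Jund lie below 0 on the vertical axis with intervals that do not reach it.

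Arrays 39 and 40 are shown apart because the group was highest there. The mean over the 9 genes was 1.08 on array 39 and 0.92 on array 40, and between 0.19 and 0.36 on the other 6. Both arrays lay above each of the other 6 for 4 of the 9 genes, Egr1, Egr2, Egr4 and Jun, against 6.78% of all genes with 8 values. This was a count without a test, since nothing in the labels sets these arrays apart. As they were singled out by the values of this group, the count describes those values and gives no separate support. Arrays 39 and 40 have neighbouring title numbers, and the labels do not say whether they share a biological sample. They also stood apart in the deposited values as a whole. Arrays 39 and 40 held 25 and 44 of the 73 values of size above 15, array 40 held 301 of the 574 values of exactly 0, and the SD over all probes was 0.56 and 0.55, against 0.36 to 0.52 on the other 6. The part of this in the high values of the group was not tested. With all arrays scaled to 1 spread, Egr1, Egr2 and Jun were called on the mean. That fit tests the mean over 8 arrays and does not compare arrays 39 and 40 with the other 6. Averaged over the pair, Egr2 stood at 2.83 against 1.12 on the other 6, Egr4 at 1.44 against -0.17, Egr1 at 1.13 against 0.54 and Jun at 0.94 against 0.33. Junb (1.11 against 0.57) and Fos (0.77 against 0.23) were higher on average, but their ranges overlapped. On the mean without these arrays, Egr1 and Egr2 were called, as were 2.65% of all genes.

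Most microglia markers were highest on these arrays. The mean of the 12 markers was 0.86 on array 39 and 0.80 on array 40, and ran from -0.36 to 0.29 on the other 6. Of the 12, 9 had both arrays above the rest, against 6.78% of all genes with 8 values. The integrin gene Itgam, with the largest mean of the list, read 2.22 and 1.48 on them. Cx3cr1 (0.23 and 0.08 on arrays 39 and 40), Cd68 (0.05 and 0.16) and Ptprc (1.15 and 0.06) did not stand above the rest on both. The markers' part in the high EGR and AP-1 values was not tested. On arrays 41 and 42, where the marker mean was -0.36 and -0.30, Egr2 lay at 1.07 and 0.81, Egr1 at 0.70 and 0.12, and Jun at 0.11 and 0.24. On the mean over 8 arrays 11 of the 12 markers lay above 0, and limma called 0 of them, with 4 at an unadjusted p under 0.05. A ratio does not show whether a marker was near its background in both fractions.

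Arrays 39 and 40 both stood above the other 6 for 0 of 10 ganglion cell and 0 of 9 rod markers. They did so for 0 of 9 Müller glia and astrocyte, 0 of 7 amacrine and 0 of 7 vascular markers. The share over all genes with 8 values was 6.78%, so a count of 0 in lists this short says little. On the mean, ganglion cell markers had 2 called on the negative side and 7 of 10 means below 0, the largest in size being Slc17a6, which loads glutamate into synaptic vesicles, at -0.64 ± 0.38 (SD, n = 8, limma adjusted p = 0.0257). Rod markers had 1 called of 9, Rp1, at 0.83 ± 0.57, with 8 means above 0 and 6 genes at an unadjusted p under 0.05, beside 3 of 10 ganglion cell and 2 of 9 Müller glia and astrocyte markers (13.1% of all genes). The Müller glia list had 1 called of 9, Rlbp1, at 0.50 ± 0.31. Of 7 amacrine and 7 vascular markers limma called 0, with 3 and 0 at an unadjusted p under 0.05, and the largest values were those of Gad2 at 0.51 ± 0.41 and Pdgfrb at -0.12 ± 0.31. The rod list mean lay between 0.00 and 0.82, was highest on array 70 and split by set. It read 0.42, 0.68, 0.55 and 0.82 in set 1 (39, 41, 43, 70). In set 2 (40, 42, 69, 71) it read 0.00, 0.16, 0.03 and 0.25. Of the members, Fos also lay higher in set 1 without overlap, while Egr3 and Jund lay higher in set 2. The ganglion cell list mean ran from -0.0007 on array 42, in effect 0, and -0.04 on array 69 down to -0.41 on array 70. The part of any of these cell types in the EGR and AP-1 values was not tested.

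**Figure D4:**
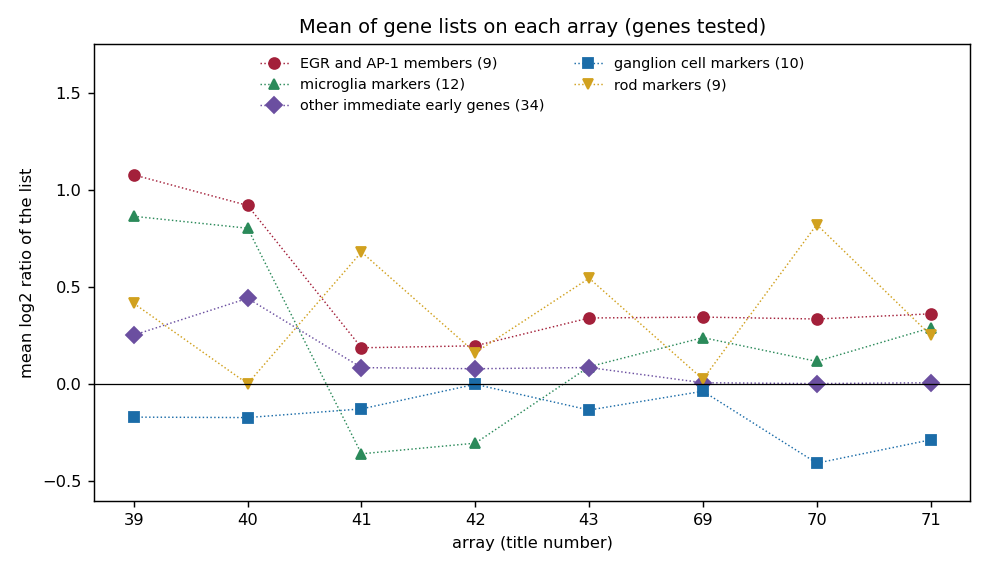
Mean log2 ratio of a gene list (vertical axis) on each of the 8 arrays (horizontal axis), with the number of genes tested in brackets. The EGR and AP-1 members and the microglia markers are both highest on arrays 39 and 40, while rod and ganglion cell markers are not.

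Genes around the members in the pathway were described from lists. Of the 15 measured of 22 upstream genes (serum response factor, its partners, CREB and MAP kinases), 0 were called, with a median of 0.06 and the largest values for Mapk9, which encodes JNK2, at 0.32 ± 0.27 and the Srf partner Elk3 at 0.19 ± 0.36. Of 12 further AP-1, ATF and EGR-related genes, 0 were called and the median was 0.00. Their largest values were those of Nab1, a corepressor that binds EGR proteins, at -0.21 ± 0.32, and of the small Maf gene Mafk at 0.18 ± 1.06. By limma at an unadjusted p under 0.05, 1 of the upstream genes and 0 of the further genes passed, against 13.1% of all genes.

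Among 34 other immediate early genes, 24 had a mean above 0 and the median was 0.09. Of the 34, 1 was called, Sgk1, a kinase induced by serum and glucocorticoids, at 0.42 ± 0.20 and positive on 8 of 8 arrays (limma adjusted p = 0.0208). Both arrays 39 and 40 lay above the other 6 for 10 of these 34 genes, against 6.78% of all genes with 8 values. Of 11 feedback inhibitors, the dual-specificity phosphatases and Sprouty proteins that switch off MAP kinase signalling, 0 were called, and 3 passed at an unadjusted p under 0.05. Dusp6, an ERK phosphatase, had the largest mean at 0.61 ± 0.74, with 1.23 and 2.13 on arrays 39 and 40 and values from -0.14 to 0.54 on the others. Dusp1 lay at 0.46 ± 0.38. Of 19 genes known as AP-1 targets or injury-response genes, 1 was called, Bcl2l11, which encodes the cell death protein Bim, at 0.51 ± 0.28 and positive on 8 of 8 arrays (limma adjusted p = 0.0246). The median of that list was 0.02, and 5 of the 19 passed at an unadjusted p under 0.05, as did 6 of the 34 other immediate early genes.

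The genes whose pattern over the 8 arrays was most like the mean of the members were Syt12, Ifi35, Ddx24 and Parvg, with Pearson r from 0.98 to 0.99. For Egr1 alone they were Or2at1 and Tmem176a, and for Fos alone Ctsb and Taar8c, each with r of 0.99. These are descriptions over 8 arrays that share the high arrays 39 and 40 or the division into sets, and 137, 340 and 782 of 14656 genes had an r above 0.9 with the 3 patterns. Among the members themselves, Egr3, Junb and Jund ran together (r from 0.92 to 0.97), as did Egr1 with Fos (0.94) and Egr2 with Egr4 (0.92), again over the same 8 arrays.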

How the data were processed

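The authors deposited 1 table of values for 41048 probes on 8 two-colour arrays. No header names their unit. The deposited values are read here as a log2 ratio of the channels from their signs and centring, per the labels' 2 channels, and the sources used here do not give the scanner software or how background and dyes were corrected. Array medians lay between -0.08 and 0.03. Values of size above 15 (73) or exactly 0 (574) were treated as missing, and 30 were missing already. None of the members' probes held such a value.

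The platform's annotation gave 1 symbol for 23374 probes, several for 48 and none for 17626. Those with 1 symbol were matched by gene identifier to RefSeq GRCr8 (23327 found, 1 symbol updated) and averaged per gene and array. Genes needed 6 arrays. limma 3.58.1 under R 4.3.3 fitted the mean, and in a second model the mean and the set deviation, over all 14801 genes with Benjamini-Hochberg adjustment. The sets came from average-linkage clustering of probe correlations. The fit was tried on simulated data with independent arrays, which cannot show how it behaves where neighbouring arrays are correlated. The precision is limited by the number of arrays, and no intensities were analysed. The members, gene lists and alternatives were chosen with earlier results of these data known. Named are all members, the 3 called genes of largest mean in each pathway list (or the 2 largest), the largest of each cell type list, and the genes most correlated with the members. Plots used matplotlib 3.10.9 under Python 3.11.15.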

Additional observations from a re-analysis of the deposited data

How the results depend on the processing

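No paired analysis was possible because all arrays form 1 group without shared replicate numbers. As a stand-in, arrays of neighbouring title numbers (39 with 40, 41 with 42, 43 with 69, 70 with 71), a pairing the labels do not give, were averaged or used as a random block. Of the members, 3 were called on the 8 arrays and 0 over the 4 averages, where 0 of all genes were called (1929 at an unadjusted p under 0.05, against 1936 over 8 arrays). With the replicate block and the set, which was drawn from these same values, as covariate 3 were called, Egr1, Egr2 and Junb. Jun was not (limma adjusted p = 0.0515). The count of members ran from 1 to 3 when arrays were left out 1 at a time, and that of all genes from 134 to 330, against 324. All genes called were 928 with the set as covariate and 4161 with the signs of set 2 turned, and 496 of 23373 probes were called when single probes were tested. With those signs turned Jun lay at -0.063 and Junb at -0.39. Egr4 turned to -0.17 without arrays 39 and 40. Fos probe 3234 lay at -0.19 and Jund probe 14124 at 0.00443 as single probes. Left out 1 array at a time, Egr3 ran from -0.103 to 0.0348 and Jund from -0.0815 to 0.0273. Values as deposited, array scaling, robust variance, the median of probes and genes with 8 values changed no call of a member.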

Other observations

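Outside the rule for named genes and chosen after their values were seen, some other immediate early genes had both arrays 39 and 40 above the other 6. This held for 10 of the 34 such genes, against 6.78% of all genes with 8 values, and only some of the 10 are given here. Klf4, a zinc finger factor, read 3.17 and 2.61 on these arrays and from -0.18 to 0.92 on the other 6. The orphan nuclear receptor gene Nr4a1 read 1.25 and 0.95 against -0.39 to 0.41, and its relative Nr4a3 read 0.72 and 0.87 against -0.24 to 0.25. Ier3 read 1.16 and 2.58 against -0.08 to 0.29. None of these passed on the mean over 8 arrays (limma adjusted p = 0.153, 0.473, 0.796 and 0.403 in that order). Npas4, a factor induced by calcium in neurons, ran the other way on array 39, at -3.42, with -0.30 on array 40 and -1.09 to 0.45 on the others.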
